A study of Mus musculus with 2 samples.

Results

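The miR-15/16 family outside the Mir322 cluster was described in lung of newborn mice by its 5 annotated precursor genes, Mir15a, Mir16-1, Mir15b, Mir16-2 and Mir497b. The members were the rows of the deposited tables that carry these genes' identifiers, 5 of 1973 miRNA gene rows, and the rule that picks them uses no measured value. Lung of B6NCrl mice, a C57BL/6N substrain, was taken on postnatal day 0, and small RNA was sequenced from 2 libraries that form 1 group. The labels tie replicate 1 to pup 1 and replicate 2 to pup 3 of the same pregnancy, each library holding both lungs of its pup, although both carry the same donor record and sex was not collected. No genotype, treatment or second tissue was part of the design, so levels are a description of newborn lung and the tests compare 2 libraries. Nothing beyond the labels shows that the libraries came from different animals, and the tests of reads cover counting error within each library.

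The miR-15/16 family is known for holding back cell division and survival. The family's seed, the bases of the mature miRNA that pair first with a target mRNA, directs it to transcripts of G1 cyclins, checkpoint kinases and the survival gene Bcl2. Mir15a and Mir16-1 lie in Dleu2, a long non-coding RNA gene whose human counterpart is lost in many chronic lymphocytic leukaemias. Mir15b and Mir16-2 lie in Smc4, which encodes a subunit of the condensin complex of dividing cells. In the mouse heart the family is known for its part in the arrest of muscle cell division after birth. Mature miR-16 is also known as an abundant miRNA of red blood cells.

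The mature sequences from RefSeq (GRCm38.p6) are shown because the shared seed defines the family and because the bases after it decide which reads can be placed. Capitals mark bases 2 to 8, counted from the 5′ end. Those of Mir15a, Mir16-1, Mir15b and Mir16-2 are identical, and miR-497b, the mature product of Mir497b, has others.
miR-15a-5p: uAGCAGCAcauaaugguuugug
miR-15b-5p: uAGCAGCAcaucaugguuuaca
miR-16-5p, from Mir16-1 and Mir16-2: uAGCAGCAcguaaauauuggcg
miR-497b: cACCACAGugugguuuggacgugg
miR-497a-5p, from the overlapping Mir497: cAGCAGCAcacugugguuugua

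In the RefSeq table, the seed AGCAGCA was held by 10 of 1679 mature miRNA names, made from 11 genes, and its perfect match in a target reads UGCUGCU. Mir497b was not among these genes, so by sequence 4 of the 5 members share the seed. Over 22 bases, miR-15a-5p and miR-15b-5p share their first 11 bases and differ at 4. The miR-16-5p made by Mir16-1 and by Mir16-2 differs from miR-15a-5p at 6 bases and from miR-15b-5p at 8. The 3p arms, from the other side of each hairpin, are less alike, with 10 differing bases of 22 between Mir16-1 and Mir16-2 and a different seed in each of the 4 members.

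The hairpins of Mir16-1 and Mir16-2 are shown because reads of miR-16-5p cannot be assigned to either. Capitals mark the longest run that both hairpins hold.
Mir16-1: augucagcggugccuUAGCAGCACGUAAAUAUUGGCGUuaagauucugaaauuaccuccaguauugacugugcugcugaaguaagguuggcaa
Mir16-2: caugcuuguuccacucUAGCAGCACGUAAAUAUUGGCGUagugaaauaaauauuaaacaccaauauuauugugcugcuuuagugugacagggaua

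That run is 23 bases long, starts at the first base of miR-16-5p and reaches 1 base past its annotated end. A read that starts there must be at least 24 bases long to fall in 1 of these hairpins alone. The whole of miR-16-5p lies in both, while the 3p arms of Mir16-1 and Mir16-2 and both arms of Mir15a and Mir15b were found in no other gene's hairpin among 1005 searched. The tables total the multiply mapped reads separately, at 34.6% of all reads in replicate 1 and 36.7% in replicate 2, and these were taken to be absent from the gene rows. The values of Mir16-1 and Mir16-2 therefore leave out an unknown number of miR-16-5p reads, and the arm from which the counted reads came is not given.

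The 4 members with the seed were all well detected, with the Dleu2 pair above the Smc4 pair in both libraries. Levels are reads per 1000000 own-strand reads on miRNA genes (CPM), of which there were 4532902 in replicate 1 and 5426081 in replicate 2. Because 1 read was taken to span a whole mature miRNA, levels were not divided by precursor length. Together the 4 members took 11451 CPM in replicate 1 and 10041 CPM in replicate 2, which is 1.15% and 1.00% of the reads. Their mean of 10746 ± 997 CPM (SD, n = 2) came from precursors of unlike level. In whole lung, more cells that make a miRNA and more of it per cell cannot be told apart.

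Mir15a (ENSMUSG00000093007.1) occupies 61632027 to 61632110 of chromosome 14 (mm10, minus strand), in an intron of Dleu2. It had 19506 reads in replicate 1 and 21016 in replicate 2, or 4303 and 3873 CPM, a mean of 4088 ± 304 CPM (SD, n = 2). Mir16-1 (ENSMUSG00000092995.1), 54 bases away at 61631880 to 61631972, overlaps an exon of a Dleu2 transcript. It had 20513 and 19298 reads, or 4525 and 3557 CPM, a mean of 4041 ± 685 CPM. These neighbours held ranks 38 and 39 of the 1973 rows by mean level, and their values overlapped: Mir16-1 was the higher in replicate 1 and Mir15a in replicate 2.

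Mir15b (ENSMUSG00000065580.1) occupies 69009772 to 69009835 of chromosome 3 (mm10, plus strand), in an intron of Smc4. It had 6933 reads in replicate 1 and 10161 in replicate 2, or 1529 and 1873 CPM, a mean of 1701 ± 243 CPM (SD, n = 2) at rank 55. Mir16-2 (ENSMUSG00000065606.1), 66 bases away at 69009902 to 69009996, lies in an intron of Smc4 as well. It had 4956 and 4008 reads, or 1093 and 739 CPM, a mean of 916 ± 251 CPM at rank 83. Mir15b and Mir16-2 did not overlap, and both stayed below each value of the Dleu2 pair. Exact Clopper-Pearson 95% intervals, which cover counting error only, were narrow beside these gaps, as for Mir16-2 with 1063 to 1124 CPM (replicate 1) and 716 to 762 CPM (replicate 2).

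Mir497b had no read on its own strand in either library, and every read in its row lay on the strand of Mir497. Mir497b (ENSMUSG00000070109.2) occupies 70234692 to 70234816 of chromosome 11 (mm10, minus strand) and has no host gene. With 3 reads as the limit that a count of 0 sets, its level could be no more than 0.662 CPM (replicate 1) and 0.553 CPM (replicate 2). The opposite-strand column of the row held 13790 and 17733 reads, so the opposite-strand share was 100% in both libraries, with exact 95% intervals of 99.9733% to 100% and 99.9792% to 100%. Across all rows this share was 1.81% and 1.96%, and it was 0 of the reads in each of the other 4 members. Mir497, a precursor of the seed family, lies on the plus strand from 70234717 to 70234800 and has no row of its own among the gene rows.

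The hairpins of this locus are shown, 5′ to 3′ on their own strands, because they are the strands of the same DNA. Capitals mark the mature arms.
Mir497: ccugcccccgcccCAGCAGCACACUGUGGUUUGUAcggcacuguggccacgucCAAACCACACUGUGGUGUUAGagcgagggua
Mir497b: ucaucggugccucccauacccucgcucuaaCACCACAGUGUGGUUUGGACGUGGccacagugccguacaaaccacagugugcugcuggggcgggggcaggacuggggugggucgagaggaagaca

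All 84 bases of Mir497 lie within the reverse complement of the 125 bases of Mir497b, and 17 bases of miR-497b are complementary to miR-497a-3p. Counted through the row of Mir497b, Mir497 reached 3042 CPM (replicate 1) and 3268 CPM (replicate 2), with a mean of 3155 ± 160 CPM (SD, n = 2). That lies below both members of the Dleu2 pair and above Mir15b. Its cluster neighbour Mir195a, 241 bases away on the same strand, stood at 4962 and 5742 CPM.

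Rows filled from the other strand were not particular to Mir497b. At 23 loci with annotated miRNA genes on both strands and at least 10 reads in each library, 10 had more than 50% of their reads on the opposite strand in each library, and 8 of these had no own-strand read at all. With the libraries summed, the row of Mir497b held more opposite-strand reads than any other row, 16.5% of them in replicate 1 and 16.4% in replicate 2. The next rows were Gm25301, opposite Mir378a, with 12725 and 17754 reads, which put it above Mir497b in replicate 2, and Gm25927, opposite Mirlet7e, with 12709 and 16826 reads.

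**Figure D1:**
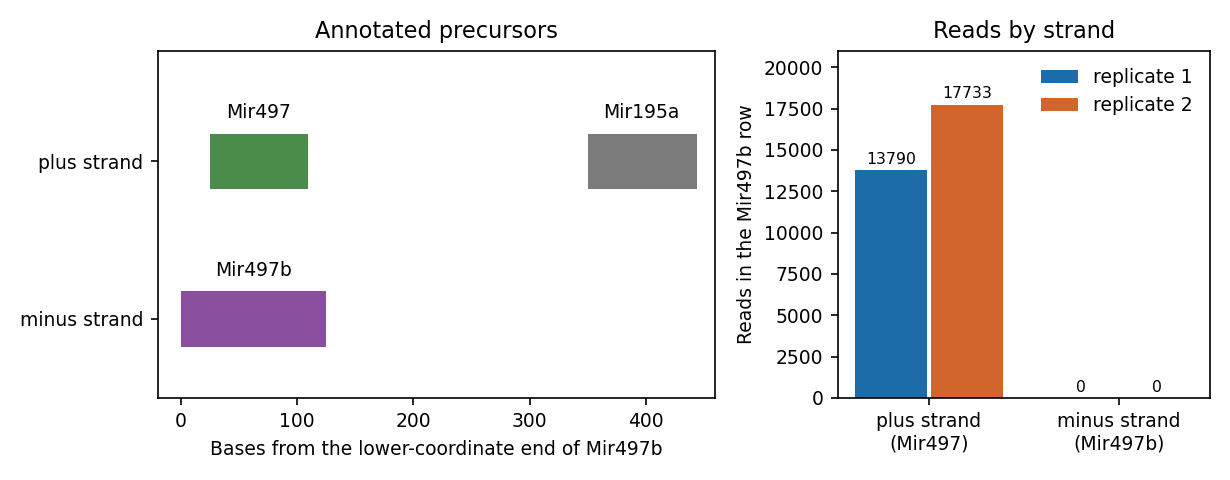
Left, the annotated precursors of the locus by strand, in bases from the lower-coordinate end of Mir497b. Right, reads in the Mir497b row by strand and library, with 13790 and 17733 reads on the strand of Mir497 and 0 on that of Mir497b.

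Among the miRNAs with the same seed, the 4 members were the smaller part beside Mir322, which belongs to a cluster on chromosome X. The seed group, with Mir497 counted through the other strand, summed to 155050 and 152431 CPM in replicates 1 and 2. The members made up 7.39% and 6.59% of it, and Mir322 made up 87.5% in both. Without Mir322, the members made up 58.9% and 52.7% of the seed group, and Mir195a and Mir497 the rest, since Mir195b had 0 and 1 read and Mir6342, Mir6353 and Mir6419 had 0. The order by mean level was Mir322, Mir195a, Mir15a, Mir16-1, Mir497, Mir15b and Mir16-2. Of the neighbours in that order, Mir15a and Mir16-1 overlapped, and each other pair of neighbours had the same order in both libraries. A sum by seed counts both arms of each hairpin, and miR-16-5p reads placed in several positions are missing from it.

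**Figure D2:**
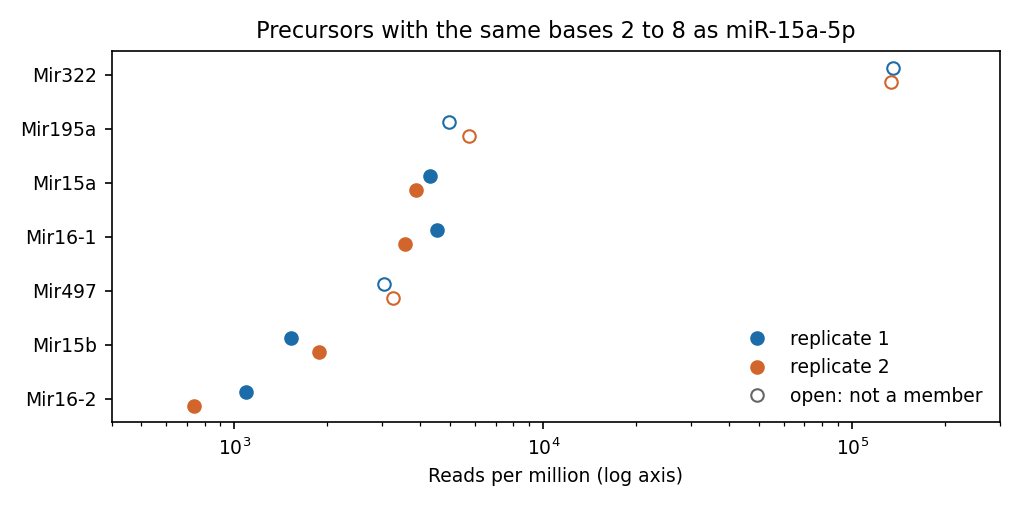
Level of each detected precursor whose 5p arm has the seed AGCAGCA, in CPM on a log axis, with 1 point per library. Filled points are members; Mir322 lies at 133379 and above in both libraries and the members lie between 739 and 4525.

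How far partners in the same host gene matched was compared next, since Mir15a lies with Mir16-1 and Mir15b with Mir16-2 in 1 host gene each. In the Dleu2 pair the counted reads of the partners were nearly level. The ratio of Mir15a to Mir16-1 was 0.951 in replicate 1 and 1.09 in replicate 2, a mean log2 ratio of 0.03 ± 0.14 (SD, n = 2). In the Smc4 pair Mir15b exceeded Mir16-2 in both libraries, by a ratio of 1.40 in replicate 1 and 2.54 in replicate 2, a mean log2 ratio of 0.91 ± 0.61. Sums of the pairs were steadier than their parts in Smc4: Mir15b and Mir16-2 together stood at 2623 and 2611 CPM, while Mir15a and Mir16-1 together stood at 8829 and 7430 CPM. The Dleu2 sum exceeded the Smc4 sum by a ratio of 3.37 in replicate 1 and 2.85 in replicate 2, a mean log2 ratio of 1.63 ± 0.17.

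The related genes of the Smc4 and Dleu2 loci were then compared, of which the miR-16 genes make an identical 5p miRNA and the miR-15 genes do not. The level of Mir15b was 0.355 of that of Mir15a in replicate 1 and 0.483 in replicate 2, a mean log2 ratio of -1.27 ± 0.31 (SD, n = 2). Mir16-2 had 0.242 of the reads of Mir16-1 in replicate 1 and 0.208 in replicate 2, a mean log2 ratio of -2.16 ± 0.15. In both libraries the genes of the Dleu2 locus, Mir15a and Mir16-1, were thus above Mir15b and Mir16-2 of the Smc4 locus. For miR-16 this order rests on reads that fall in 1 of the hairpins alone, and the shares of miR-16-5p made by each locus were not measured. Divided by precursor length, the mean log2 ratio of Mir15b to Mir15a was -0.88 and that of Mir15a to Mir16-1 was 0.17. By the same division, the mean log2 ratio of Mir15b to Mir16-2 was 1.48 and that of Mir16-2 to Mir16-1 was -2.19.

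All 4 ratios differed between the libraries beyond counting error. The difference was largest for Mir15b over Mir16-2, at -0.86 on the log2 scale for replicate 1 minus replicate 2 (two-sided Fisher's exact test, Benjamini-Hochberg adjusted over 5 pairs, p = 5.28e-113). It was -0.44 for Mir15b over Mir15a (adjusted p = 2.64e-62, exact), 0.22 for Mir16-2 over Mir16-1 (1.51e-10) and -0.20 for Mir15a over Mir16-1 (1.27e-21). The fifth pair, the strands of the Mir497b row, had 0 reads on one strand in both libraries and gave no ratio (adjusted p = 1, exact). These tests compare reads of 2 libraries, and no p over animals is given, since an exact sign-flip test (two-sided) over 2 libraries cannot go below 0.5.

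**Figure D3:**
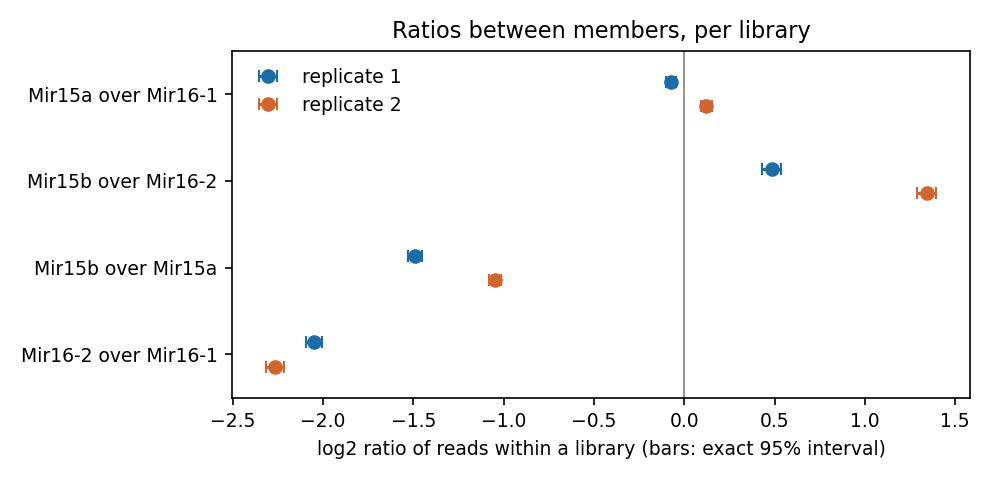
Log2 ratio of reads between members within each library, with exact 95% intervals for counting error as bars. Mir15a over Mir16-1 lies on either side of 0, Mir15b over Mir16-2 is above 0 in both libraries, and the Smc4 genes are below the related Dleu2 genes.

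The members differed between the libraries in opposite directions. Mir16-2, Mir16-1 and Mir15a were higher in replicate 1, by log2 ratios of 0.57, 0.35 and 0.15 over replicate 2, and Mir15b was lower, at -0.29. In the two-sided exact binomial test of each gene's split of reads, with Benjamini-Hochberg adjustment over 375 rows, adjusted p was 2.84e-75 for Mir16-2, 5.55e-126 for Mir16-1, 3.05e-25 for Mir15a and 5.78e-38 for Mir15b. All 4 members with reads thus passed at 0.05, while 42.4% of all tested rows did (159 of 375). Among rows read as deeply the share was higher, at 59.7% of the 233 rows with a mean of at least 100 reads and 75.3% of the 146 rows with a mean of at least 1000 reads, so the members' count is close to that of other deeply read rows. Mir497b, with 0 own-strand reads, did not reach the minimum of 10 reads for the test.

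In size, the changes of the members spread over the range of other rows. Among 233 rows with a mean of at least 100 reads, a log2 ratio at least as large in size as that of Mir16-2 was seen in 6.01%, as that of Mir16-1 in 14.2%, as that of Mir15b in 21.03% and as that of Mir15a in 55.4%. The SD of the log2 ratio over these rows was 0.26. The miR-16 genes together stood at 5619 CPM in replicate 1 and 4295 CPM in replicate 2, and the miR-15 genes together at 5833 and 5746 CPM. The share of reads mapped to several places, which holds miR-16-5p, was lower in replicate 1 than in replicate 2, at 34.6% and 36.7%, and its part in the difference of the miR-16 genes was not tested.

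**Figure D4:**
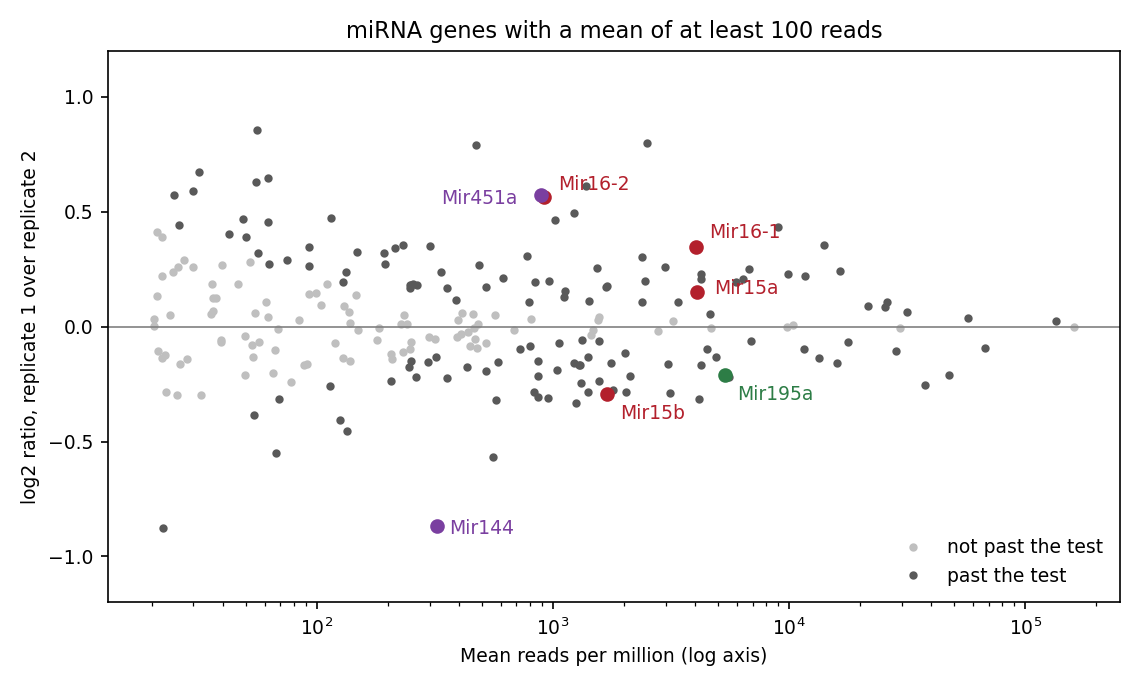
Log2 ratio of replicate 1 over replicate 2 against mean CPM (log axis) for the 233 miRNA genes averaging 100 reads or more, dark where the exact binomial test passed. Mir16-2 at 0.57 and Mir16-1 at 0.35 lie above 0, Mir15b at -0.29 below, and Mir451a lies on Mir16-2.

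On the strand of Mir497, the difference ran the other way from that of 3 members. Mir497 had a log2 ratio of -0.10 with the strands of each row counted together (adjusted p = 3.05e-09 over 385 rows, of which 42.9% passed, in the same exact binomial test), and Mir195a had -0.21 (adjusted p = 7.51e-62 over 375 rows, exact). Mir497 and Mir195a together stood at 8004 CPM in replicate 1 and 9010 CPM in replicate 2.

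Red cell miRNAs were set beside the members because red cells are rich in miR-16. Mir451a, which is processed by Ago2 in place of Dicer and is abundant in red cells, stood at 1064 CPM in replicate 1 and 716 CPM in replicate 2, next below Mir16-2 in the order of levels and with the same log2 ratio of 0.57. Mir144, its cluster partner, ran the other way at 228 and 415 CPM, and Mir486 had 13.9 and 17.9 CPM. All 3 red cell markers listed had at least 10 reads in each library, and their sum was 1306 CPM in replicate 1 and 1149 CPM in replicate 2. Their part in the levels of the miR-16 genes was not tested.

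The tissue label was checked against miRNAs known from lung and other organs. Endothelial Mir126a stood at 160640 and 160658 CPM, the 6 epithelial markers summed to 32744 and 32592 CPM, and the 4 multiciliated markers to 22070 and 22227 CPM. The 5 smooth muscle and fibroblast markers summed to 71765 and 75591 CPM, and the 3 leukocyte markers with a row to 1502 and 1605 CPM. The leukocyte marker Mir142 had no row and is not in that sum. Counted through the opposite strand of the Mir142b row, it reached 1553 CPM in replicate 1 and 1779 CPM in replicate 2. Of markers of other organs, the 4 of heart and skeletal muscle summed to 407 and 445 CPM, with 3 of them detected. The liver marker Mir122 stood at 45.9 and 53.1 CPM, and the 2 brain markers with a row, Mir9-2 and Mir9-3, summed to 0 and 0.369 CPM. These 2 genes make an identical miR-9-5p, and reads mapped to several places were taken to be absent from the gene rows. Their low sum therefore cannot show that miR-9-5p was absent from the tissue.

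By level, the rows nearest to each member were taken as the most like it over the 2 libraries. Mir744 lay next above Mir15a at 3691 and 4590 CPM, and Mir140, a cartilage miRNA, next below Mir16-1 at 3526 and 3273 CPM. Mir15b stood between Mir18, of the miR-17 cluster, at 1661 and 1854 CPM and Mir484 at 1803 and 1596 CPM. Mir16-2 stood between Mir183 at 850 and 1053 CPM and Mir451a. Each of these means lay within 1 SD of the member's mean.

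Other miRNAs made in identical form by several genes were used to place the miR-16 copies. Of the 24 such 5p miRNAs listed, counted by rows of at least 2 genes, miR-16-5p had the most reads in its rows. Whole reads of such a 5p miRNA can map to several places, and reads of that kind were taken to be absent from the gene rows. The order is therefore one of counted reads and does not rank the miRNAs themselves. Next in the list were miR-181a-5p, miR-181b-5p and let-7c-5p. The list did not hold let-7a-5p, of the genes Mirlet7a-1 and Mirlet7a-2. These had 240 and 143 CPM in replicate 1 and 189 and 121 CPM in replicate 2. Both passed as higher in replicate 1 in the binomial test. Mir181a-1 and Mir181a-2 had 1268 and 49.4 CPM in replicate 1 and 1546 and 43.5 CPM in replicate 2. Mir181b-2 and Mir181b-1 had 595 and 9.27 CPM in replicate 1 and 345 and 4.79 CPM in replicate 2. Mirlet7c-2 and Mirlet7c-1 had 261 and 118 CPM in replicate 1 and 204 and 103 CPM in replicate 2. Of 47 listed genes of such miRNAs other than miR-16, 25 had at least 10 reads in each library. Of 29 tested, 6 were higher and 1 lower in replicate 1. Their median log2 ratio was 0.07, against 0.03 over all rows tested.

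Lists of other miRNAs known to restrain or promote growth were read in the same test. Of 16 growth-restraining miRNAs, among them let-7, miR-34, miR-26 and miR-29 genes, 3 were higher and 6 lower in replicate 1. Their median log2 ratio was 0.02, with a summed level of 149396 CPM in replicate 1 and 164957 CPM in replicate 2. The let-7a, let-7c and miR-26a genes of the list each make a 5p miRNA that another gene makes in identical form. Reads mapped to several places were taken to be absent, so the summed level of the list leaves out an unknown number of these genes' reads. This list holds only part of the let-7 family, so its counts depend on the genes chosen. Outside it, Mirlet7a-2, Mirlet7c-2 and Mirlet7f-2 passed as higher in replicate 1, and Mir98 of the same family passed as lower. Of 15 genes of the growth-promoting miR-17 clusters, 3 were higher and 2 lower in replicate 1, with a median of 0.03 and a summed level of 17606 and 17346 CPM. The 4 members, of which 3 were higher and 1 lower in replicate 1, had a median log2 ratio of 0.25. Over all 375 rows tested, 23.2% passed as higher and 19.2% as lower in replicate 1, with a median of 0.03. That is 54.7% of the calls higher in replicate 1, against 37.7% with TMM scaling, under which the directions of the members were the same.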

How the data were processed

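The authors deposited whole-number read counts per miRNA gene, 1 table per library without normalization, on mm10 with GENCODE M4, as the deposited file descriptions state. For the aligner, counter, trimming and filters, the sources used here give nothing. In each gene row the leading count is the sum of the other counts, which were read from the values as own-strand and opposite-strand reads. Own-strand reads held 98.2% and 98.0% of reads on miRNA genes in replicates 1 and 2.

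Totals left out the rows without a gene: 8.49% and 8.69% of the reads were unmapped, 34.6% and 36.7% multiply mapped and 2.18% and 2.41% on no feature. Of 1973 identifiers, 1894 matched GENCODE M21 (GRCm38, the assembly of mm10), which gave symbols, positions and hosts. RefSeq gave mature arms for all 5 members and hairpins for 4.

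CPM was computed with the own-strand sum as total. Detected means at least 10 reads in each library. The libraries were counted as 2, since over 375 rows their chi-square was 75.2 for each degree of freedom. The quasi-likelihood test of edgeR has no residual degrees of freedom when 1 library is compared with 1, so exact binomial, Fisher's exact and Clopper-Pearson methods (scipy 1.17.1) were used, at 95% and at an adjusted p of 0.05. The binomial test was checked on simulated counts. Scaling by edgeR 4.0.16 (TMM) and DESeq2 1.42.0 served as alternatives.

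The rule for the members uses gene identifiers and no values, but the members, lists and tests were chosen with earlier results of these data known. Named were all members, genes of the same seed, hosts and the rows next to each member by mean CPM. Named too were the 3 other listed identical-copy miRNAs and the 3 dual-strand rows with the most reads. Genes of the let-7 family outside the lists were named in addition. Cell type markers were named from lists of lung, blood and other organ miRNAs.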

Additional observations from a re-analysis of the deposited data

Results flagged for a closer look

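The row of Mir497b held reads in the opposite-strand column, which is outside the main measurement, far above the 3 reads that a count of 0 allows. There were 13790 such reads in replicate 1 and 17733 in replicate 2, against 0 own-strand reads in both.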

How the results depend on the processing

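The summed level of the 4 members was 5757 CPM with all reads of the library as total, 12803 CPM without the most abundant gene in the total and 13901 CPM with Mir497 added, an alternative chosen after the data were seen, against 10746 CPM. Leaving out a library gave 10041 to 11451 CPM. Divided by precursor length, the log2 ratio of Mir15a to Mir16-1 was 0.17 in place of 0.03 and that of Mir15b to Mir15a was -0.88 in place of -1.27, since the division favours the shorter precursor. Under the same division, the log2 ratio of Mir15b to Mir16-2 was 1.48 in place of 0.91. That of Mir16-2 to Mir16-1 was -2.19 in place of -2.16. With 1 library left out, Mir15a over Mir16-1 ranged from -0.07 to 0.12 and so changed sign, Mir15b over Mir16-2 ranged from 0.48 to 1.34, Mir15b over Mir15a from -1.49 to -1.05 and Mir16-2 over Mir16-1 from -2.27 to -2.05. The seed group on the own strand summed to 150585 CPM, to 16098 CPM without Mir322, and to 149163 to 152007 CPM with a library left out. The opposite-strand share of the Mir497b row was 100% with either library left out.

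Rows past the test numbered 145 to 165 under 5 alternatives, against 159. Higher in replicate 1 were 54.7% of the calls, 37.7% with TMM scaling (61 higher, 101 lower) and 41.5% with DESeq2's size factors (66 higher, 93 lower). The 4 members passed with the same direction under all 5 alternatives, with log2 ratios of 0.50 to 0.57 for Mir16-2, 0.28 to 0.35 for Mir16-1, 0.08 to 0.15 for Mir15a and -0.36 to -0.29 for Mir15b. No paired analysis was possible because the libraries form 1 group. Depth limits the absence of Mir497b to under 0.662 CPM, and reads mapped to several places limit the values of Mir16-1 and Mir16-2.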
